A study of Homo sapiens with 4 samples.

Results

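NFE2L2, which encodes the transcription factor NRF2, its inhibitor KEAP1 and 7 genes for enzymes and a transporter that keep glutathione, thioredoxin and NADPH-dependent reduction running were examined in RNA-seq data of MDA-MB-231 cells. The genes were picked by name, as every row of the deposited table that carries one of the symbols NFE2L2, KEAP1, GCLC, GCLM, SLC7A11, GSR, TXNRD1, SRXN1 or NQO1. All 9 genes were listed, with 35 transcripts of the 43596 transcripts and 15113 genes in the table. MDA-MB-231 is an established cell line from a human breast carcinoma that lacks the hormone receptors and HER2 amplification. It was grown in 6-well plates and exposed for 24 h to the solvent DMSO or to 10 µM KH-3, a small-molecule inhibitor of the RNA-binding protein HuR, with 2 libraries per condition, and every cell in the experiment is of this single line.

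The table holds 1 usable measurement per transcript, the mean normalized read count that the authors averaged over libraries. Which libraries entered that mean is not stated, and the methods name a further group at 5 µM KH-3. The remaining value columns are the authors' own test of KH-3 against DMSO and are not used here, so no effect of KH-3 is given for any gene. The values below therefore describe how strongly each transcript was represented in the pooled experiment, carry no error, and cannot be assigned to DMSO or KH-3. Depth per library is unknown. The lowest mean normalized read count in the table was 7.34 and the median was 50.8. As a check of the cell label, the mesenchymal filament gene VIM lay at percentile 99.7 of all genes by level per length. The adhesion receptor gene CD44 lay at percentile 80.8 and the epithelial gene EPCAM at percentile 32.4. EPCAM was the only epithelial gene given a value in this check. Of other genes expressed in epithelia, AGR2 had 3859 and AP1M2 had 2025 mean normalized reads per kb, both above the 90th-percentile level of 797. Further epithelial genes were not examined. The check therefore does not show that epithelial genes were low as a group, and it does not settle the cell label. CDH1, ESR1 and PGR have no row in this table and were not analysed here.

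NRF2 is a leucine zipper factor that is made continuously and, in unstressed cells, bound by KEAP1 and handed to a CUL3 ubiquitin ligase for degradation. When cysteines of KEAP1 are modified by oxidants or electrophiles, NRF2 escapes, pairs with a small MAF protein and binds antioxidant response elements near its target genes. The targets studied here import cystine (SLC7A11), build glutathione (GCLC and GCLM), regenerate it (GSR), reduce thioredoxin (TXNRD1), repair oxidised peroxiredoxin (SRXN1) and reduce quinones (NQO1). NRF2 is controlled largely at the level of its protein.

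The antioxidant response element core TGACNNNGC was searched on both strands of the reference promoters, which run from 250 bases before to 50 bases after an annotated start (RefSeq, GRCh38.p14). Of the 9 genes 7 had an entry, with 10 promoters in all. GSR and SLC7A11 had none. The core was found in 4 of the 10 promoters and in 3 of the 7 genes, namely GCLM, KEAP1 and TXNRD1, against 13.3% of all 35116 promoters and 16.1% of all 27305 symbols. The matches are printed because they are the places where the letters recognised by NRF2 with its MAF partner lie next to these genes. Each window is written 5′ to 3′ on the strand of its gene, with the matched letters in capitals.
GCLM, chr1:93909446-93909474, minus strand: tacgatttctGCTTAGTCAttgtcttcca
KEAP1, chr19:10502784-10502812, minus strand: gcccggctctGCTTAGTCAtggtgacctg
KEAP1, chr19:10502807-10502835, minus strand: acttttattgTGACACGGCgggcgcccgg
TXNRD1, chr12:104215670-104215698, plus strand: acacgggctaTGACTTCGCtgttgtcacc
TXNRD1, chr12:104215761-104215789, plus strand: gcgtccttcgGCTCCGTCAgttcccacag
TXNRD1, chr12:104286920-104286948, plus strand: gtggatttctGCTTTGTCAttctgactct

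In GCLM the match began 34 bases upstream of the annotated start and one of the KEAP1 matches 31 bases upstream of its own, and both carry the same matched letters on the strand opposite to the gene. The other KEAP1 match, on the strand of the gene, began 54 bases upstream. TXNRD1 has 2 annotated promoters, and each held at least 1 match. In the outer promoter the matches began 99 and 8 bases upstream of the start, and in the inner promoter the match began 102 bases upstream. The NFE2L2, GCLC, SRXN1 and NQO1 promoters held no match, which says only that these letters are not within the windows searched. The matches describe letters, and binding was not measured.

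All 9 genes lay above the median gene when the mean normalized read count of each transcript was divided by its length and summed over the transcripts of the gene. This level per length is in mean normalized reads per kb. Its median over the 9 genes was 555, against 108 over all 15113 genes. NQO1 was the highest with 2306, at percentile 97.5, and TXNRD1 the lowest with 199, at percentile 64.3, so that the listed transcripts of the 9 genes spanned an 11.6-fold range. That range rests on the TXNRD1 models, being 115-fold without those annotated as incomplete and 8.02-fold between leading transcripts. GCLM, the other gene above percentile 90, had a level per length of 1292. NFE2L2 followed with 754 and KEAP1 with 634. The next genes were close to each other, with SRXN1 at 555, SLC7A11 at 540 and GSR at 499, and GCLC stood apart below them at 260. From KEAP1 down to GSR 4 genes fell within a 1.27-fold range, and since the column gives no spread between libraries, no order among neighbours can be shown to exceed it.

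**Figure D1:**
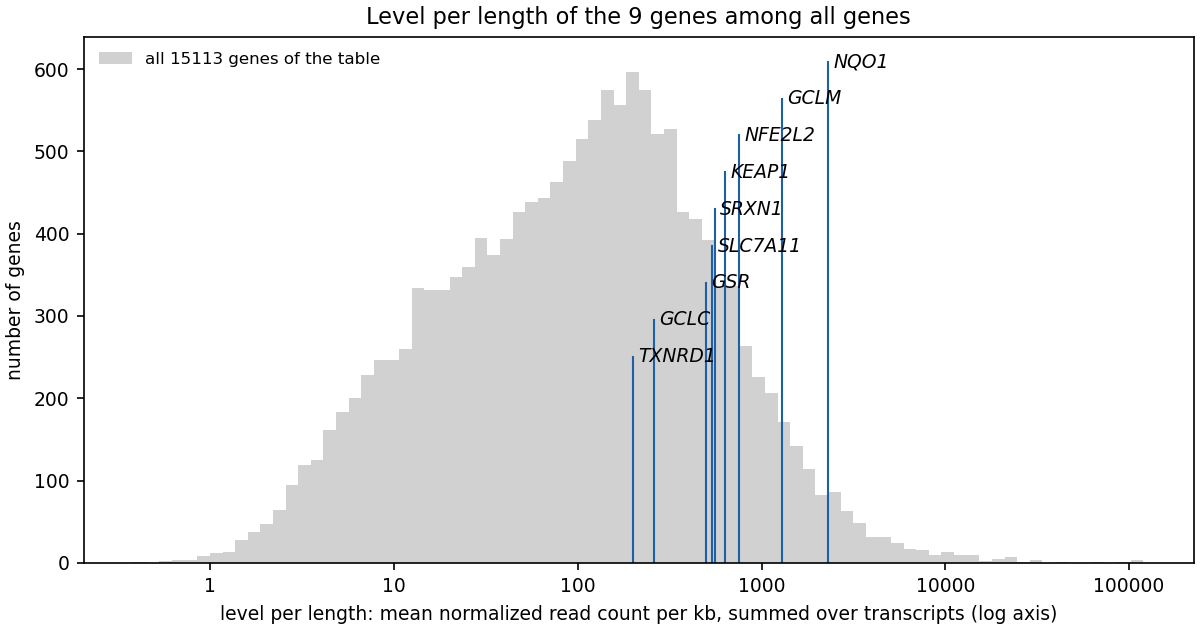
Histogram of the level per length (mean normalized read count per kb, summed over a gene's transcripts, log axis) of all 15113 genes, with a vertical line for each of the 9 genes (line height only separates the labels). The 9 lines run from 199 for TXNRD1 to 2306 for NQO1, all to the right of the median gene at 108.

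Among the regulators, NFE2L2 had 6 listed transcripts with a summed mean normalized read count of 1680, rounded from 1679.9. The gene lies on the minus strand of chromosome 2 of hg38 from 177218667 to 177392756. Most of the count was not on the transcript that encodes the longest NRF2 protein. NFE2L2-008 (ENST00000446151.6), whose coding sequence starts downstream of the first coding exon and encodes 582 residues, had a mean normalized read count of 1093, or 65.1% of the gene. NFE2L2-001 (ENST00000397062.7), which encodes the 605-residue protein, had 381, or 22.7%. A shorter model, NFE2L2-012, had 118. NFE2L2-003 and NFE2L2-002, which both encode 589 residues, had 43.0 and 37.0, and NFE2L2-006 had 7.53, near the floor of the table. Together the 3 transcripts whose coding sequence starts after the first coding exon of NFE2L2-001 held 69.8% of the NFE2L2 count. These transcripts share nearly all of their coding exons, so the split between them depends on how reads in shared exons were assigned.

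KEAP1, the cysteine-rich adaptor that holds NRF2, lies on the minus strand of chromosome 19 from 10486125 to 10503558 and had 5 listed transcripts with a summed mean normalized read count of 1169. KEAP1-002 (ENST00000393623.6), with the full coding sequence of 624 residues, had 934, or 79.9% of the gene. KEAP1-001 (ENST00000171111.9) encodes the same 624 residues from another upstream exon and had 63.8. KEAP1-002 starts inside the KEAP1 promoter window that held the core, and both matches lie within its first exon. KEAP1-009, a retained-intron transcript of 451 bases, had 75.4 mean normalized reads, or 6.45% of the count and 26.4% of the level per length of the gene, since short transcripts weigh more once length is divided out. Per length, NFE2L2 stood 1.19 times above KEAP1 over all transcripts and 1.62 times above it over protein-coding transcripts. The ratio was 2.01 without models annotated as incomplete and 1.29 between the leading transcripts. Leaving out incomplete models removed KEAP1-003 and KEAP1-004 but no NFE2L2 transcript. The short NFE2L2-012, which is absent from GENCODE release 44, and NFE2L2-006 were kept, so the ratio of 2.01 reflects removal on the KEAP1 side only.

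**Figure D2:**
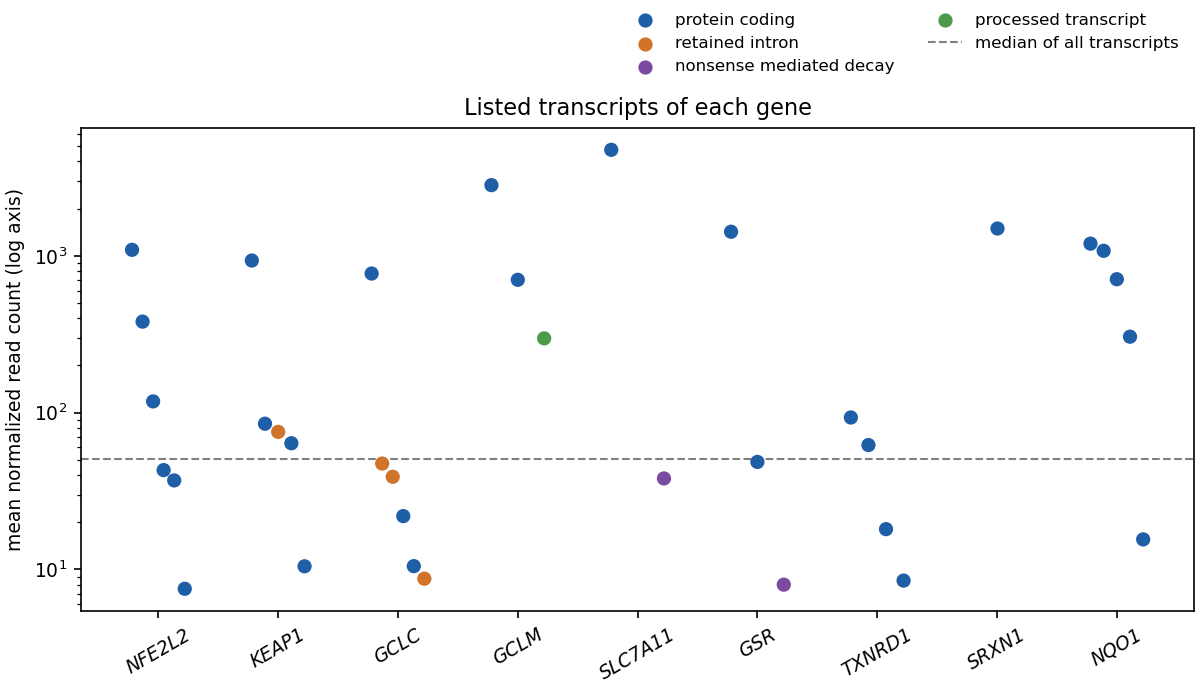
Each point is 1 listed transcript, at its mean normalized read count (log axis), arranged by gene and coloured by transcript type. The points run from 7.53 for NFE2L2-006 to 4748 for SLC7A11-001, and 20 of the 35 lie under 100.

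In glutathione synthesis, the cystine importer gene SLC7A11 carried the largest read count of the 9 genes. It lies on the minus strand of chromosome 4 from 138164097 to 138242349. SLC7A11-001 (ENST00000280612.9), which encodes 501 residues, had a mean normalized read count of 4748, or 99.2% of the gene, and a nonsense-mediated-decay transcript had 38.1. By summed count SLC7A11 lay at percentile 97.8, but by level per length at percentile 84.7, since its transcript is 9645 bases long, 7859 of them 3′UTR. For this gene the choice between count and level per length decides its place among the 9 genes, from the highest to the sixth.

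The catalytic and the modifier subunit of glutamate-cysteine ligase, the rate-limiting enzyme of glutathione synthesis, were represented unequally. GCLC, the catalytic subunit gene on the minus strand of chromosome 6 from 53497341 to 53616970, had 6 listed transcripts with a summed mean normalized read count of 899. GCLC-001 (ENST00000229416.10) had 772, or 85.8%. The next GCLC transcripts were GCLC-004 with 47.4 and GCLC-005 with 39.0, both listed as retained-intron forms. GENCODE release 44 annotates GCLC-005 as coding, with 361 residues. The other forms listed as coding followed, GCLC-201, which encodes 584 residues, with 21.9 and GCLC-003 with 10.5, and GCLC-012 had 8.74. GCLM, the modifier subunit gene on the minus strand of chromosome 1 from 93885199 to 93909456, had 3 listed transcripts with a summed mean normalized read count of 3828. GCLM-001 (ENST00000370238.7), encoding 274 residues, had 2826, GCLM-201 had 704 and the 625-base processed transcript GCLM-002 had 298. GCLM was thus higher than GCLC on every summary. The ratio of their levels per length was 4.97 over all transcripts, 3.83 over protein-coding transcripts and 2.87 between the leading transcript of each. GCLM-002, which is left out of the last 2 ratios, supplied 36.9% of the GCLM level per length, and GCLM-201, which is left out of the last, supplied 18.1%.

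GSR, the NADPH-dependent reductase that turns oxidised glutathione back, lies on chromosome 8 from 30678066 to 30727846. GSR-001 (ENST00000221130.9), encoding 522 residues, had a mean normalized read count of 1426, or 96.2% of the gene. GSR-007 had 48.5, and the nonsense-mediated-decay transcript GSR-004 held 0.540% of the count. GSR was therefore represented almost entirely by its full-length mRNA, as SLC7A11 was.

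TXNRD1, the cytosolic selenoprotein that reduces thioredoxin, spans 104215779 to 104350307 of chromosome 12 and is the only 1 of the 9 genes on the plus strand. It had 4 listed transcripts with a summed mean normalized read count of only 182, at percentile 41.4 of all genes. TXNRD1-021 (ENST00000529751.1), a 557-base model annotated as incomplete, had 93.2, or 51.2% of the count and 84.1% of the level per length. TXNRD1-002, which encodes 551 residues and starts its coding sequence just downstream of the inner promoter, had 62.2, TXNRD1-201 had 18.1 and TXNRD1-016, another incomplete model, held 4.67% of the count. The transcript that GENCODE release 44 marks as canonical for TXNRD1 has no row in the table and was not analysed here, so these values cover part of the gene and are not its total expression. Without the incomplete models the level per length of TXNRD1 was 20.1, at percentile 17.3 and thus below the median gene. GSR, a flavoprotein reductase of the same family, was 2.50 times higher than TXNRD1 per length over all listed transcripts, and 24.4 times higher without the incomplete models, ratios that carry the same limit.

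SRXN1 encodes sulfiredoxin, which repairs over-oxidised peroxiredoxins, and lies on the minus strand of chromosome 20 from 646615 to 653200. It had a single listed transcript, ENST00000381962.3, with a mean normalized read count of 1497 over 2698 bases. Its level per length of 555 is the median of the 9 genes and does not depend on any split between transcripts.

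NQO1, the 2-electron quinone reductase often used as a readout of NRF2, lies on the minus strand of chromosome 16 from 69706996 to 69726668. By count it had the smallest leading share of the 9 genes, 36.2%. By level per length the smallest leading share was that of GCLM, 45.0%, against 58.2% for NQO1. NQO1-005 (ENST00000564043.1, 253 residues) had a mean normalized read count of 1197, NQO1-002 (240 residues) had 1078 and NQO1-001 (ENST00000320623.9), which encodes the full 274-residue enzyme, had 710. NQO1-004 (236 residues) had 305 and NQO1-007 (202 residues) had 15.6. The full-length form thus held 21.5% of the NQO1 count and the other 4 forms 78.5%. Each exon of NQO1-005 lies within an exon of NQO1-001, and the other forms share most of their exons with NQO1-001. The split between the forms therefore depends on how reads in shared exons were assigned. NQO1-005 differs from NQO1-001 at its 5′ part, where the coding sequence starts later, and ends 14 bases after its stop codon, while NQO1-002, NQO1-004 and NQO1-007 each lack at least 1 internal coding exon. In the other 8 genes 1 transcript reached 50% of the count, as in 84.8% of all genes, whereas in NQO1 none did. Genes with a single listed transcript, such as SRXN1, reach that share by default and are included. The median share of the leading transcript was 81.4% over all genes and 65.3% over genes with several listed transcripts. NQO1 was the highest of the 9 per length under each of the summaries of transcripts, with 1342 from NQO1-005 alone.

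**Figure D3:**
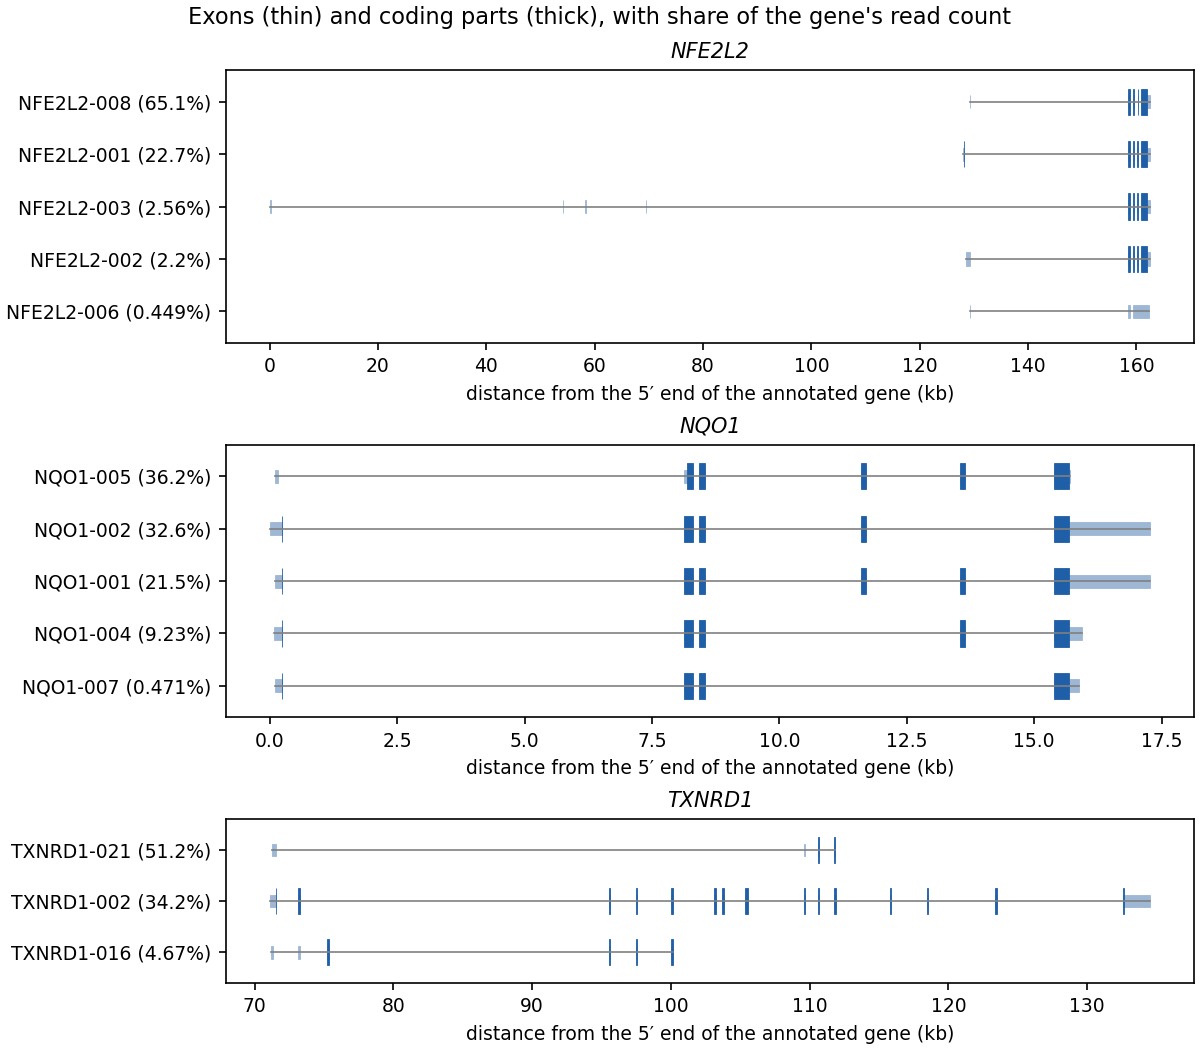
Exons (light, thin) and coding parts (dark, thick) of the listed NFE2L2, NQO1 and TXNRD1 transcripts found in GENCODE release 44, against distance from the 5′ end of the annotated gene in kb, each with its share of the gene's mean normalized read count. The transcript with the largest share is NFE2L2-008 (65.1%), NQO1-005 (36.2%) and TXNRD1-021 (51.2%), none of which is the longest coding form of its gene.

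HuR binds AU-rich stretches, so the pentamer AUUUA was counted in the annotated 3′UTR of each coding transcript of the 9 genes with a complete coding sequence and the same length in both annotation releases. Across the leading coding transcripts of 3469 genes that met the same conditions, 66.7% held at least 1 AUUUA and the median density was 1.47 per kb of 3′UTR. NFE2L2-008 held 3 in 477 bases, a density of 6.29 per kb, and A and U made up 72.7% of this 3′UTR. SLC7A11-001 held 32 in 7859 bases, or 4.07 per kb. GCLM-201 held 6 in 1956 bases, GCLC-003 held 6 in 1209 bases and TXNRD1-002 held 6 in 1862 bases, but these are not the transcripts with the largest count of their genes. KEAP1-002 held 1 in 526 bases and NQO1-002 held 1 in 1575 bases, whereas NQO1-005, with a 3′UTR of 14 bases, held none. Among transcripts that lead their gene, the density was above the median for NFE2L2-008, SLC7A11-001 and KEAP1-002, the last on 1 pentamer. NQO1-005 was not placed, since 14 bases are too short for a density to be compared. Of those that do not lead, the density was above the median for NFE2L2-003, GCLM-201, GCLC-003 and TXNRD1-002, and below it for NQO1-002. NQO1-004 and NQO1-007 held none, in short 3′UTRs of 249 and 194 bases. GCLC-003 held only 1.17% of the GCLC count, and its 3′UTR lies within an intron of GCLC-201. Its density therefore does not describe the main GCLC mRNA. GSR and SRXN1 had no transcript with a 3′UTR that met these conditions. A pentamer is a description of the letters, and HuR binding to these mRNAs was not analysed here.

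The surrounding pathways were described from 5 gene lists, all of whose members had a row in the table. Whether the canonical transcript of each of these genes had a row was not examined. A low level in these lists may therefore cover only part of a gene, as for TXNRD1. Among 12 NRF2 partners and regulators 10 lay above the median gene, and the median level per length was 316. The autophagy receptor gene SQSTM1, whose protein can sequester KEAP1, stood out with 5902, followed by the related factor NFE2L3 with 1250 and RBX1, a subunit of the CUL3 ligase, with 658. CUL3 itself had 349. BACH1, a repressor that competes for antioxidant response elements, had 144, and BACH2, the lowest, had 5.56. Of the small MAF partners, MAFG had 380, MAFK had 283 and MAFF had 236. Each of the small MAF genes was thus below NFE2L2 per length.

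In the glutathione system 16 of 21 genes lay above the median gene, with GSTO1 at 1201, GLRX at 1167 and GSS, the enzyme that completes glutathione, at 1039. SLC3A2, the partner chain of SLC7A11, had 467, and the lowest was GSTO2 with 2.65. GSS was above GCLC. It was below GCLM over all transcripts but above the protein-coding transcripts of GCLM, whose level per length was 816. In the thioredoxin system 5 of 8 genes lay above the median. TXN, the main substrate of TXNRD1, had a level per length of 3964, followed by TXN2 with 973 and TXNIP with 949, whereas TXNRD2 had 44.9, the lowest. In the supply of NADPH, on which GSR, TXNRD1 and NQO1 draw, 12 of 13 genes lay above the median, led by the pentose phosphate genes TALDO1 with 2227 and PGD with 1948 and by IDH1 with 830, and only ME2, with 3.68, was below it. The median of the NADPH list was 572, close to the 555 of the 9 genes. Of 12 other genes listed as NRF2 targets 8 lay above the median. Their median was 220, with AKR1B1 at 1835, TXNIP, which is also in the thioredoxin list, at 949 and CBR1 at 708 at the top and AKR1C2 at 8.18 at the bottom. The list was set by name, is not complete and does not separate genes that NRF2 raises from genes that it lowers. Whether its genes respond to NRF2 in these cells was not tested.

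**Figure D4:**
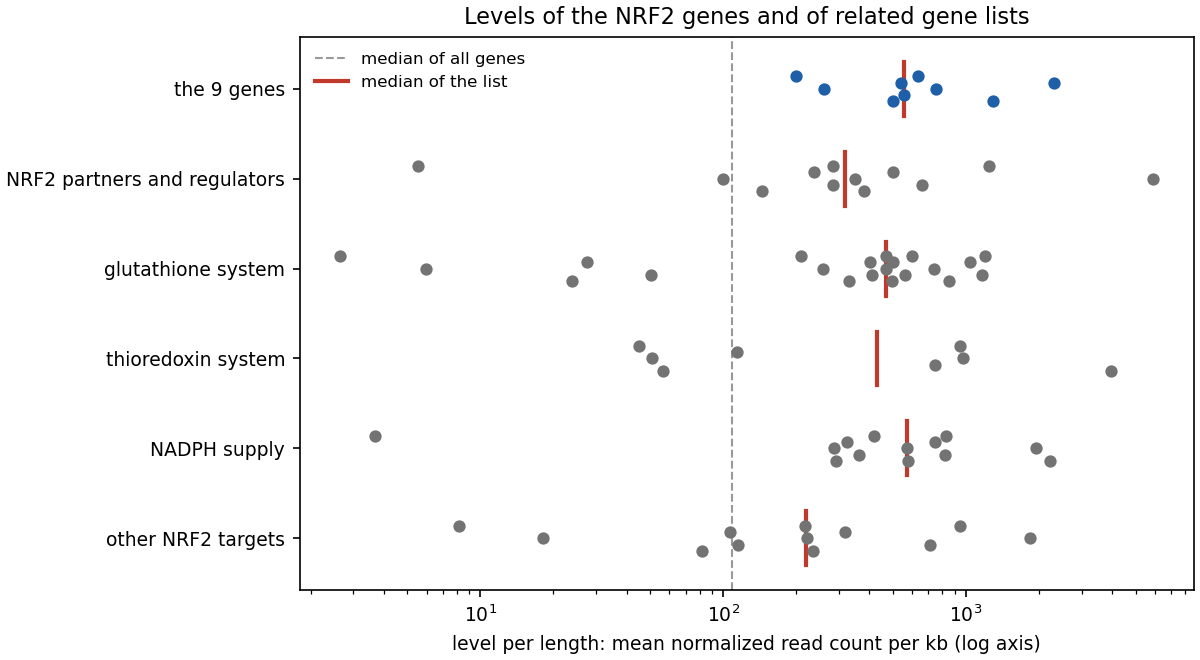
Level per length (mean normalized read count per kb, log axis) of the 9 genes and of each gene in 5 pathway lists, with a red bar at the median of each row and a dashed line at the median of all genes, 108. The medians of the rows lie between 220 for other NRF2 targets and 572 for NADPH supply, all to the right of the dashed line.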

How the data were processed

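For 2 libraries of DMSO-treated and 2 of KH-3-treated MDA-MB-231 cells, grouped by the labels, the authors prepared TruSeq mRNA libraries, sequenced them on an Illumina HiSeq system, aligned reads to GENCODE release 24 transcripts by STAR, counted them per transcript by eXpress and tested groups by DESeq2. Tool versions are not given in the sources used here. The deposited signal is a mean normalized read count per transcript over libraries, with no scaling by length stated. The deposited table also holds the authors' log2 fold changes, p-values and q-values, which were not used. No test was made, as the table has no values per library, and the precision of each value is unknown.

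Here each mean count was divided by the transcript length in the table and summed by gene symbol. Exons, coding parts and coordinates came from GENCODE release 44 (hg38), matched by transcript ID without version. Of the 35 transcripts 32 matched, 23 with equal length. All 10 reference promoters were identical to the hg38 genome at their coordinates. No gene was named for a pattern like that of another, since there is 1 value per transcript. The text names all 9 genes and, from each pathway list, the highest 3, the lowest and some with a stated role that were chosen after their values were seen. The genes, lists and choices were made with earlier results of these data known. The 3′UTR count and the check of the cell label were added after the table was seen. The calculations were tested on simulated data with Python 3.11.15, numpy 2.4.6 and pandas 2.3.3.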

Additional observations from a re-analysis of the deposited data

How the results depend on the processing

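The median level per length of the 9 genes was 555, and it was 492 with protein-coding transcripts only, 457 with the transcript of highest count only and 492 without coding transcripts annotated as fragments, an alternative chosen after seeing the data. Without division by length the median summed count was 1497, which is on another scale. Over 27 pairs of a gene and an alternative set of transcripts, 8 values were at least 1.5 times lower and 0 were higher, since each alternative removes transcripts. All 9 genes lay above the median gene, but 8 without fragments or without division by length, TXNRD1 being the exception. Above percentile 90 were 2 genes, or 4 with the transcript of highest count only and 3 under some others. A transcript with at least 50% of the count was found in 8 genes, and in 3 at a minimum of 90%, against 41.9% of all genes at that minimum. Genes with a single listed transcript, SRXN1 among them, are included in these values. By share of count per length it was also 8 genes, with NQO1 in and GCLM out. The core was found in the promoters of 3 genes, also when an A had to follow it (3.94% of all symbols), and of 5 with the looser TGANNNNGC (47.1% of all symbols). For KH-3 against DMSO another pseudocount, a filter, left-out libraries and a block were not run. No paired analysis was possible because the column used is a mean over libraries and carries no replicate numbers.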

Other observations

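The missing row of the canonical TXNRD1 transcript was set against the rest of the table. Of 12095 genes with a listed protein-coding transcript and a canonical transcript in GENCODE release 44, 1713 (14.2%) had no row for that canonical transcript. The table follows GENCODE release 24, and whether these canonical IDs existed in that release was not examined. The 14.2% therefore does not separate transcripts left out of the table from IDs that came later. Among the 9 genes a canonical row was missing for TXNRD1 and GCLC. The leading GCLC transcript, GCLC-001, with 85.8% of the GCLC count, carries an ID that is not in release 44. Whether the missing GCLC row reflects only a change of ID was not tested. Where the canonical transcript was listed, it had the largest count of its gene in 70.2% of 10382 genes and in 4 of the 7 NRF2 genes concerned. The exceptions were NFE2L2, KEAP1 and NQO1, in each of which another transcript led.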
